A study of Homo sapiens with 6 samples.

Results

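The mitochondrial chaperones and proteases described here are 10 genes, chosen by symbol: HSPA9, HSPD1, HSPE1, TRAP1 and DNAJA3 among the chaperones, and LONP1, CLPP, CLPX, AFG3L2 and HTRA2 among the proteases. Each symbol matched 1 of the 58735 genes in the deposited tables, and all 10 were among the 11875 genes that were tested because they averaged 1 FPKM or more (fragments per kilobase of exon, scaled to a size of each library that the authors set). The RNA came from MUM2B, a human melanoma cell line. The control group held 3 libraries of cells stably carrying an empty vector, and the other group held 3 libraries of cells stably overexpressing LACTB, a filament-forming mitochondrial protein related to bacterial beta-lactamases, which resides between the outer and inner membranes. All cells were grown in the same medium with fetal bovine serum. The comparison asks which transcripts differ when LACTB is raised. The sources used here do not give the promoter that drives LACTB, or whether each line is 1 clone or a mixed pool. Nothing in the labels says that the libraries of a group came from separate cultures, so each p-value measures the spread between libraries, which may be technical.

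Most mitochondrial proteins are made in the cytosol and imported unfolded. In the matrix, the HSP70 protein encoded by HSPA9 pulls them in and holds them, the ring-shaped chaperonin encoded by HSPD1 and its lid encoded by HSPE1 fold them, and ATP-dependent proteases such as LONP1 and the CLPX-CLPP complex degrade those that fail. When misfolded protein builds up inside mitochondria, cells are known to raise the transcripts of some of these genes in the mitochondrial unfolded protein response. In mammalian cells that response is tied to the integrated stress response, in which the transcription factors ATF4, CHOP (encoded by DDIT3) and ATF5 act.

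The LACTB transcript itself stood at 3.81, 3.39 and 4.71 FPKM in the empty vector libraries and at 174, 169 and 161 FPKM in the LACTB libraries. This is a 42.4-fold difference between means (log2 fold change 5.10, limma adjusted p 7.00e-07), in the direction of the labels. Reads assigned to genes numbered 16978799 to 18395631 per library. Replicate 3 of the empty vector group stood apart: mitochondrially encoded transcripts took 3.61% of its reads against 4.65% to 5.62% in the other 5 libraries. Of the melanocyte markers, 8 of 8 were under 1 FPKM, S100B was listed at 0 in every library, and their summed level was 1.26 to 1.34 FPKM in empty vector cells and 1.70 to 2.13 FPKM in LACTB cells. The defining markers of the labelled lineage were thus near 0. Markers of fibroblasts (6 of 6), blood cells (6 of 6) and epithelium (4 of 4) were under 1 FPKM. Of the 5 endothelial markers 4 were under 1 FPKM, and the exception was CDH5, which encodes VE-cadherin, at 49.8 ± 2.56 FPKM in empty vector and 14.0 ± 0.453 FPKM in LACTB cells (SD, n = 3 each). Any part of these markers in the results below was not tested. In bulk RNA, fewer cells with a transcript and less of it per cell cannot be told apart.

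In LACTB cells 3 of the 10 genes rose, none fell and 7 were not called (limma, adjusted p under 0.05). The count of fallen genes was also 0 at an unadjusted p under 0.05 and 0 with limma voom on the recovered reads. At that unadjusted p stood 5029 of all 11875 tested genes, in either direction, and 16.4% of all fell with limma voom. The genes that rose were LONP1, the main quality-control protease of the matrix, HSPA9, the matrix HSP70, and DNAJA3, the J-domain protein that works with that HSP70. Over all 11875 tested genes, 14.8% rose and 17.2% fell by the main rule (limma, adjusted p under 0.05). Among the chaperones 2 of 5 rose, and among the proteases 1 of 5. The LACTB and empty vector libraries did not overlap for 3 of the 10, the same genes, against 47.4% of all tested genes in either direction. The median log2 fold change of the 10 was 0.02 and of all tested genes -0.01. Their median absolute log2 fold change was 0.11, against 0.14 for all tested genes. The medians of the 10 genes lay close to those of all tested genes, and the change was in 3 of them.

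**Figure D1:**
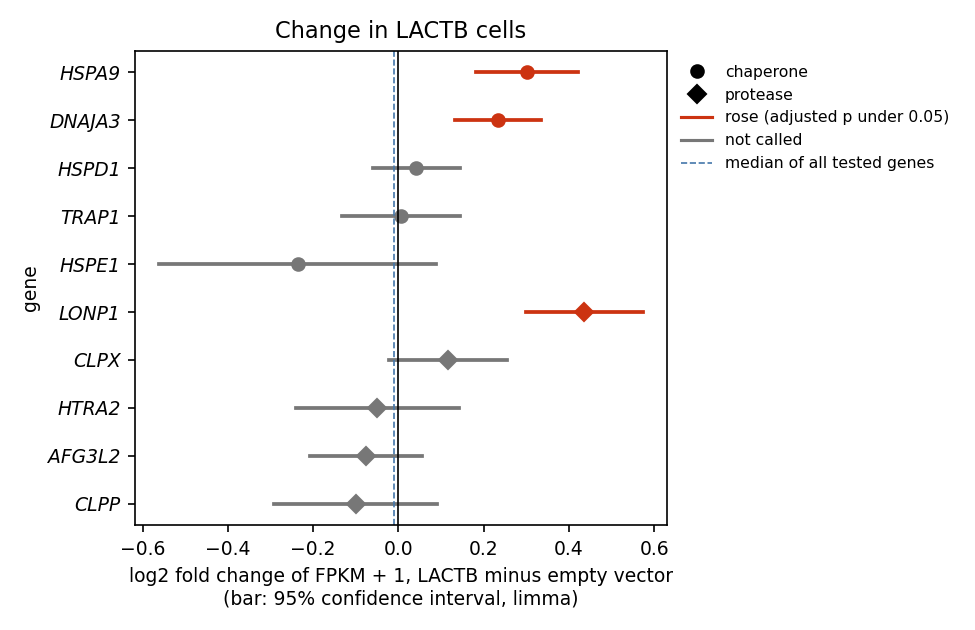
Log2 fold change of FPKM + 1 (horizontal axis, LACTB minus empty vector, n = 3 each) of each gene, with its 95% confidence interval from limma as a bar. Circles are chaperones, diamonds are proteases and red marks genes that rose. LONP1 (0.44), HSPA9 (0.30) and DNAJA3 (0.23) lie to the right of 0 with their whole intervals, and the intervals of the other 7 genes cross 0.

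Sequence near the start sites of some of these genes is given because transcription factors of stress responses and of mitochondrial gene control bind in such regions. RefSeq promoter windows (GRCh38.p14, 250 bases before to 50 after a start) covered 9 of the 10 genes in 12 windows, of 35116 windows in all. CLPP is named only. Both strands were searched for 4 short motifs, and a match describes letters, not a bound site. TGCGCATGC, the core bound by NRF1, a regulator of nuclear genes for mitochondrial proteins, is held by 1.56% of all windows and was found in the window of 1 of 2 LONP1 starts, with 4 matches. TGACGTCA, the cyclic AMP response element, is held by 1.85% of all windows and was found for TRAP1. GAANNTTC, the core of the heat shock element, is held by 6.77% of all windows and was found in 1 of 2 HSPD1 windows, that of the start at position 197499840. This start lies downstream of the other HSPD1 start, and the printed stretch is annotated as transcribed sequence. TGATGNAA, the core of the composite element of ATF4 and CHOP, is held by 3.62% of all windows and was in 0 of the 12, which says only that these letters are not there. Stretches with matches are printed on the gene's strand from 5′ to 3′, with matched letters in capitals. DNAJA3 is shown as a gene that rose and holds none of the 4 motifs. HSPA9, which also rose, holds none of them either and is not printed.
LONP1, chr19:5720572-5720676, minus strand, from 224 to 120 bases before the start: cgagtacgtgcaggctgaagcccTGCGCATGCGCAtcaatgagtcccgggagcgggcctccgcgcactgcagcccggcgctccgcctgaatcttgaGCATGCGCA
TRAP1, chr16:3717598-3717657, minus strand: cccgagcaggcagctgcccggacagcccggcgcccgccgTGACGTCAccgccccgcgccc
DNAJA3, chr16:4425706-4425804, plus strand: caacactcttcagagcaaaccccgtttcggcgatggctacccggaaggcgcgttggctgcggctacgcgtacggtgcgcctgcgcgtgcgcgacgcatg
HSPD1, chr2:197500062-197500090, minus strand: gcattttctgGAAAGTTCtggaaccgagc
In LONP1 the first capital run holds 2 overlapping matches, 1 on each strand, the second run holds another, and the fourth match lies nearer the start. All 12 windows were above the median window in GC content (58.7%) and in the observed over expected ratio of CpG (0.579), as CpG island promoters are.

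LONP1 (ENSG00000196365, chr19:5691834-5720572, minus strand, GRCh38, GENCODE release 29) encodes the Lon protease, an ATP-driven enzyme that removes oxidised and misfolded matrix proteins. Its level was 25.4, 27.2 and 25.6 FPKM in the empty vector libraries and 32.9, 36.9 and 37.3 FPKM in the LACTB libraries. Every LACTB library was above every control library, and LACTB replicate 1 was the lowest of its group. The means were 26.1 ± 0.956 and 35.7 ± 2.45 FPKM (SD, n = 3 each), a ratio of 1.37. The log2 fold change was 0.44 (SE 0.058, 95% confidence interval 0.30 to 0.57, adjusted p 0.00189), and 513 of the 1758 genes that rose had a larger one. LONP1 thus rose more than the median gene that rose, at 0.32. Behind these values stood 2273 to 3408 reads per library.

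HSPA9 (ENSG00000113013, chr5:138553756-138575724, minus strand) encodes mortalin, the HSP70 of the matrix and the motor of protein import. Empty vector cells had 78.0, 77.2 and 85.7 FPKM and LACTB cells 101, 97.2 and 98.8 FPKM. The groups did not overlap, and the highest control library was replicate 3, the one that stood apart in its share of mitochondrially encoded reads. The mean went from 80.3 ± 4.72 to 99.1 ± 2.06 FPKM (SD, n = 3 each), a ratio of 1.23, with a log2 fold change of 0.30 (SE 0.051, 95% confidence interval 0.18 to 0.42, adjusted p 0.00496). In FPKM this was the largest gain of the 10 genes, and 974 of the 1758 risen genes had a larger fold change. It was read from 11331 to 15138 reads per library.

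DNAJA3 (ENSG00000103423, chr16:4425805-4456775, plus strand) encodes TID1, a J-domain co-chaperone that stimulates the ATPase of the matrix HSP70. It was at 11.1, 10.99 and 10.6 FPKM in empty vector and at 12.8, 12.7 and 13.5 FPKM in LACTB cells. All LACTB libraries lay above all controls, with little spread inside either group. Means were 10.9 ± 0.253 and 13.0 ± 0.428 FPKM (SD, n = 3 each), a ratio of 1.19, and the log2 fold change was 0.23 (SE 0.043, 95% confidence interval 0.13 to 0.33, adjusted p 0.00678, 1350 to 1712 reads). Of the genes that rose, 1346 of 1758 rose more. DNAJA3 starts 100 bp from CORO7 on the other strand, which stood at 0.927 ± 0.0889 FPKM in empty vector and 0.718 ± 0.0690 FPKM in LACTB cells, below the level needed for a test.

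The HSP70 and its J protein both rose, and their ratio overlapped between the groups. HSPA9 stood at 7.05, 7.02 and 8.09 times DNAJA3 in empty vector libraries and at 7.93, 7.67 and 7.34 times in LACTB libraries. The means were 7.39 ± 0.610 and 7.64 ± 0.296 (SD, n = 3 each, exact two-sided permutation p 0.6, where 3 against 3 cannot go below 0.1). GRPEL1 and GRPEL2, the nucleotide exchange factors of the same HSP70, were not called. Both are named outside the rule for named genes, after their values were seen. GRPEL1 was at 16.7 FPKM in empty vector and 19.7 FPKM in LACTB cells (log2 fold change 0.24, adjusted p 0.0795), and GRPEL2 at 11.4 and 13.4 FPKM (0.21, adjusted p 0.07). TIMM44, which docks the HSP70 to the import channel, rose from 12.8 ± 0.924 to 16.7 ± 0.939 FPKM (SD, n = 3 each, log2 fold change 0.36, adjusted p 0.00622).

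HSPD1 (ENSG00000144381, chr2:197486581-197516737, minus strand) encodes HSP60, the chaperonin ring. It had the highest level of the 10, with 174, 178 and 185 FPKM in empty vector and 189.6, 182 and 181 FPKM in LACTB cells. The groups overlapped. The log2 fold change was 0.04 (95% confidence interval -0.06 to 0.14, adjusted p 0.496), and on the same scale the interval leaves room for a ratio between 0.960 and 1.11. It had 12975 to 14576 reads per library.

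HSPE1 (ENSG00000115541, chr2:197499994-197503457, plus strand) encodes HSP10, the lid that closes the HSP60 ring. Its values were 25.5, 21.5 and 33.3 FPKM in empty vector and 22.5, 22.7 and 21.4 FPKM in LACTB cells. Control replicate 3 was the highest of all, replicate 2 fell within the LACTB range, and the coefficient of variation was 22.4% in the controls and 3.15% in LACTB cells. The log2 fold change was -0.24 (95% confidence interval -0.56 to 0.09, adjusted p 0.235) and was not called. It was -0.07 (adjusted p 0.501) without control replicate 3 and -0.38 (adjusted p 0.0501) without control replicate 2, so single control libraries set its size. Depth was lower here, at 762 to 1187 reads.

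HSPD1 and HSPE1 lie head to head. Their RefSeq starts are at positions 197500274 and 197500379 of chromosome 2, 105 bp apart, and their promoter windows share 204 bp. The gene models share 281 bp of exon on opposite strands, 6.62% of HSPD1 and 14.2% of HSPE1, and the sources used here do not say whether counting used strand. HSPD1 stood at 6.82, 8.28 and 5.55 times HSPE1 in the control libraries and at 8.41, 8.01 and 8.46 times in the LACTB libraries. The means were 6.88 ± 1.37 and 8.29 ± 0.249 (SD, n = 3 each), and the ranges overlapped (exact two-sided permutation p 0.2). Both genes have many processed pseudogenes. HSPD1 has 17 close copies, 9 of them at 0 in all libraries, which together held 1.10% to 1.46% as many reads as HSPD1. HSPE1 has 27, 16 of them at 0, with 2.02% to 6.07%. These include the unprocessed pseudogene HSPE1P9 and HSPE1-MOB4, a readthrough that joins HSPE1 to the next gene, at 0 to 3 reads per library. The best covered copies were HSPD1P1 (4.73 FPKM in empty vector and 5.09 FPKM in LACTB cells, adjusted p 0.600) and HSPE1P2 (4.15 and 5.38 FPKM, adjusted p 0.237). HSPD1P4 was at 0.549 and 0.484 FPKM and HSPE1P26 at 0.406 and 0.610 FPKM. Of the 150-base stretches of the longest coding transcript, 0.0434% in HSPD1 occur exactly in a transcript of another gene, HSPD1P1. In HSPE1 it is 5.49%, all in the readthrough HSPE1-MOB4. A read of 150 bases that matches exactly is thus rarely shared with a pseudogene. Reads with mismatches can still be split between copies or left uncounted, and their effect on the levels of HSPD1 and HSPE1 was not tested.

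**Figure D2:**
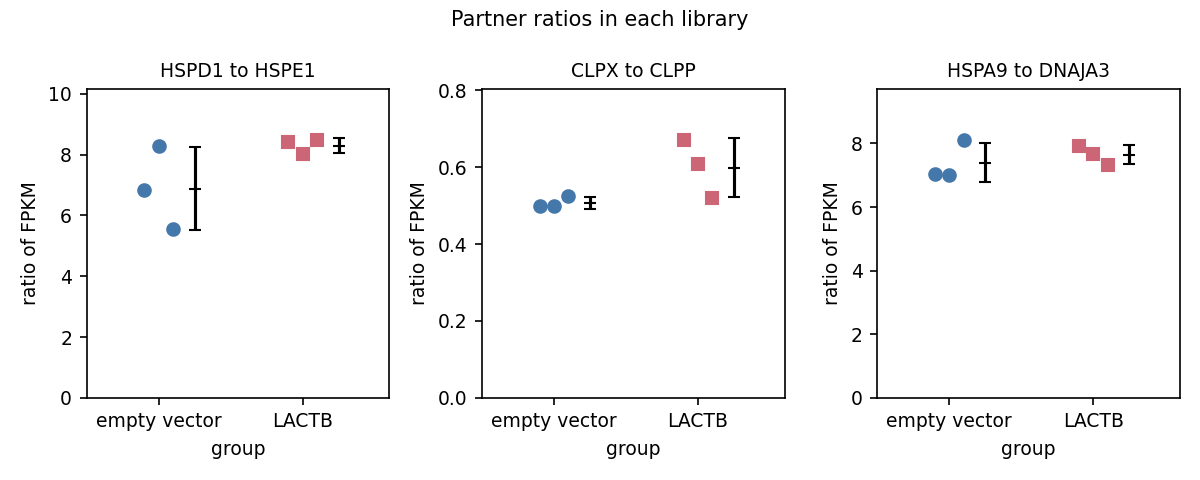
Ratio of FPKM (vertical axes, starting at 0) between partner genes in each library, with the mean and SD (n = 3 each) to the right of the points. HSPD1 to HSPE1 spreads from 5.55 to 8.28 in empty vector cells and from 8.01 to 8.46 in LACTB cells, and in all 3 panels the groups overlap.

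TRAP1 (ENSG00000126602, chr16:3651639-3717597, minus strand) encodes the mitochondrial HSP90. It was at 15.3, 14.0 and 14.9 FPKM in empty vector and at 13.8, 15.0 and 15.7 FPKM in LACTB cells, and the groups overlapped. The log2 fold change was 0.01 (95% confidence interval -0.13 to 0.15, adjusted p 0.948), and its sign turned when single libraries were left out. Of its exon bases, 29.3% are shared with DNASE1 on the other strand, which stood at 0.737 to 1.13 FPKM.

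CLPP and CLPX form a protease that resembles a barrel with a lid: CLPX unfolds a substrate and threads it into the CLPP chamber. CLPP (ENSG00000125656, chr19:6361452-6368910, plus strand) was at 23.3, 23.0 and 19.9 FPKM in empty vector and at 18.6, 21.0 and 22.04 FPKM in LACTB cells (log2 fold change -0.10, 95% confidence interval -0.29 to 0.09, adjusted p 0.392). CLPX (ENSG00000166855, chr15:65148219-65185342, minus strand) was at 11.6, 11.5 and 10.5 FPKM in empty vector and at 12.4, 12.8 and 11.4 FPKM in LACTB cells (0.12, -0.02 to 0.26, adjusted p 0.178). Neither was called, both overlapped between groups, and their differences had opposite signs. The ratio of CLPX to CLPP was 0.499, 0.498 and 0.526 in the controls and 0.669, 0.608 and 0.519 in LACTB cells. LACTB replicate 3 fell within the control range (0.508 ± 0.0157 and 0.599 ± 0.0758, SD, n = 3 each, exact two-sided permutation p 0.2).

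AFG3L2 (ENSG00000141385, chr18:12328944-12377314, minus strand) encodes a subunit of the m-AAA protease of the inner membrane. It was at 12.5, 12.7 and 14.1 FPKM in empty vector and 11.9, 12.7 and 12.5 FPKM in LACTB cells, with overlap between the groups (log2 fold change -0.07, 95% confidence interval -0.21 to 0.06, adjusted p 0.352). It shares 12.6% of its exon bases with TUBB6 on the other strand, an abundant tubulin gene at 224 to 237 FPKM in the controls and 168 to 184 FPKM in LACTB cells. If reads were not counted by strand, reads in the shared bases could be added to AFG3L2 or left uncounted. Which of these applies depends on settings that are not stated, and it was not tested. SPG7, the partner subunit, named after its values were seen, was at 2.84 and 2.71 FPKM (log2 fold change -0.05, adjusted p 0.553).

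HTRA2 (ENSG00000115317, chr2:74529377-74533348, plus strand) encodes a serine protease of the intermembrane space, the compartment in which LACTB resides, and is known to promote cell death when released into the cytosol. It had the lowest level of the 10, at 4.79, 4.30 and 4.47 FPKM in empty vector and 3.75, 4.57 and 4.72 FPKM in LACTB cells. LACTB replicate 1 was the lowest and the groups overlapped (log2 fold change -0.05, 95% confidence interval -0.24 to 0.14, adjusted p 0.684). It rested on 204 to 255 reads, and 16.1% and 20.8% of its exon bases are shared with AUP1 and LOXL3 on the other strand. AUP1 stood at 36.9 to 42.5 FPKM and LOXL3 at 0.329 to 0.652 FPKM. Any effect of these overlaps on the counts of HTRA2 was not tested.

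The order of levels, per length of all annotated exons and as a mean over the 6 libraries, was HSPD1 (181.7 FPKM), HSPA9 (89.7), LONP1 (30.9), HSPE1 (24.5), CLPP (21.3), TRAP1 (14.8), AFG3L2 (12.8), DNAJA3 (11.9), CLPX (11.7) and HTRA2 (4.44). The library ranges of HSPD1, HSPA9 and HTRA2 did not overlap those of their neighbours in this order. LONP1, HSPE1 and CLPP overlapped in turn, as did TRAP1, AFG3L2, DNAJA3 and CLPX. Per length of the longest coding transcript, a scale added after the data were seen, HSPE1 (51.0) came before LONP1 (48.5) and DNAJA3 (30.5) before AFG3L2 (26.0), and the other places were unchanged. Together the 10 genes summed to 389 ± 13.2 FPKM in empty vector and 419 ± 0.984 FPKM in LACTB cells (SD, n = 3 each). The chaperones made up most of it, at 312 ± 15.3 and 333 ± 5.73 FPKM, and the proteases stood at 77.03 ± 2.08 and 85.2 ± 4.86 FPKM.

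**Figure D3:**
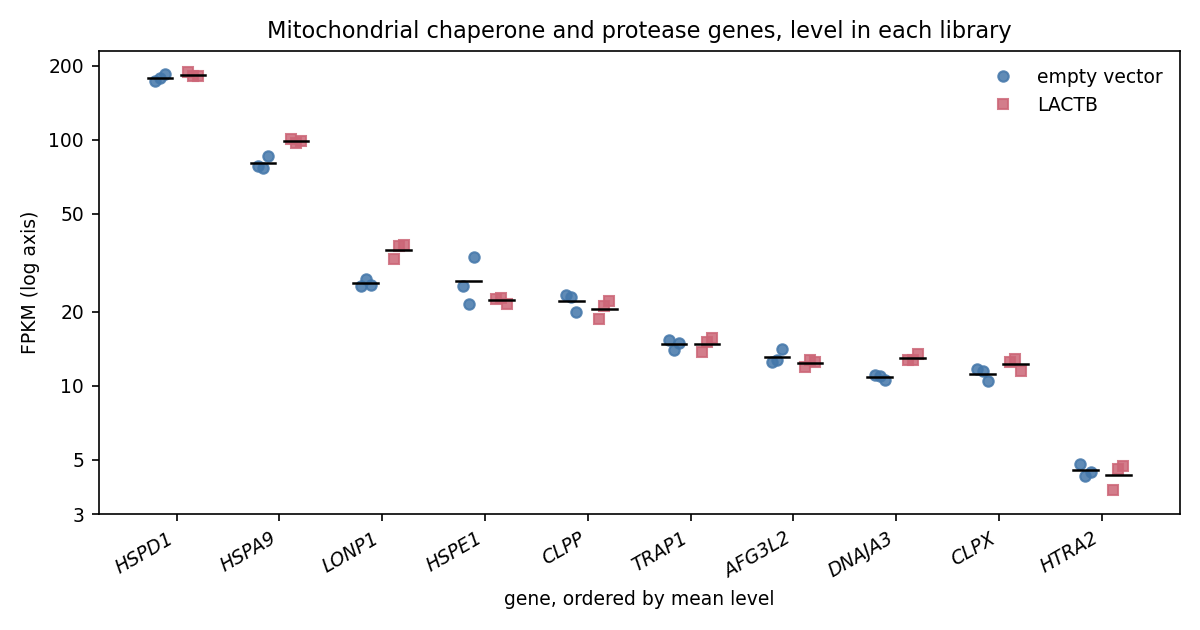
FPKM (vertical log axis) of each gene in every library, ordered by mean level, with empty vector libraries as blue circles, LACTB libraries as red squares and group means as black lines (n = 3 each). LONP1, HSPA9 and DNAJA3 have all LACTB points above all control points, and HSPE1 shows 1 control library at 33.3 FPKM above the rest.

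The pattern of each gene over the 6 libraries was set beside 121 genes, the other members and those of 6 related lists. This is a description in which the points share library and group. For genes that both differ between the groups, that difference alone gives a high r, which therefore shows no link between them. LONP1 was most like DDIT3 (Pearson r of log2(FPKM + 1) 0.974) and PPP1R15A (0.973). HSPA9 was most like the protease gene YME1L1 (0.988) and BIRC3 (0.977), and DNAJA3 most like ALAS1 (0.991) and SIRT1 (0.977). Among the genes not called, HSPD1 was nearest to HSPH1 (0.928) and BIRC2 (0.854), HSPE1 to DNAJA1 (0.962) and CYCS (0.956), and TRAP1 to HTRA2 (0.901) and PHB2 (0.815). HTRA2 was nearest to TRAP1 and TOMM40 (0.860), CLPP to SDHA (0.896) and PMPCA (0.878), CLPX to XPNPEP3 (0.867) and ATF5 (0.848), and AFG3L2 to C1QBP (0.939) and HSCB (0.924).

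Regulators of the mitochondrial unfolded protein response and the integrated stress response were a list of 27 symbols, of which 26 matched and 25 genes were tested. Of these 6 rose and 3 fell, with a median log2 fold change of -0.04. As a measure for this list and those below, 14.8% of all tested genes rose and 17.2% fell, with a median of -0.01. PPP1R15A, whose product directs the dephosphorylation of eIF2alpha and so restores translation, rose from 61.9 ± 0.631 to 123 ± 4.17 FPKM (SD, n = 3 each, log2 fold change 0.98, adjusted p 1.08e-05). DDIT3 rose from 8.96 ± 0.791 to 19.99 ± 0.648 FPKM (1.08, adjusted p 5.31e-05), and ATF4 from 159 ± 3.90 to 263 ± 8.57 FPKM (0.72, adjusted p 6.57e-05). The other risen genes were CEBPB, SIRT1 and ATF5, named after their values were seen. ATF5, a factor tied to the mitochondrial response, was at 3.67 ± 0.351 FPKM in empty vector and 5.45 ± 0.237 FPKM in LACTB cells (0.47, adjusted p 0.00280). JUN fell from 115 ± 4.57 to 77.7 ± 5.83 FPKM (-0.56, adjusted p 0.000933), YY1 from 22.6 ± 0.890 to 18.4 ± 0.445 FPKM (-0.29, adjusted p 0.00343) and MYC from 68.5 ± 4.69 to 56.5 ± 3.90 FPKM (-0.27, adjusted p 0.0226). The call of MYC was lost without empty vector replicate 1 (adjusted p 0.0684) or 2 (0.0661), and without LACTB replicate 1 (0.0624) or 3 (0.0638). Set side by side, DDIT3 differed by 1.08 on the log2 scale and LONP1 by 0.44, and the difference between the genes was not tested.

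Other mitochondrial proteases and their regulators were a list of 24 symbols, some of them older names, of which 20 matched and 18 were tested. Of these 1 rose and 1 fell, with a median of -0.02, where 14.8% of all tested genes rose and 17.2% fell. The risen count was 3 with quantile normalization, 4 with library weights and 4 with limma voom. Of all tested genes, 15%, 16.9% and 19.8% rose in these settings, in that order. PITRM1, which degrades targeting peptides cut from imported proteins, rose from 8.74 ± 0.727 to 11.6 ± 0.160 FPKM (SD, n = 3 each, log2 fold change 0.38, adjusted p 0.00369). PHB, which encodes a prohibitin that holds the m-AAA protease in a ring, fell from 46.8 ± 2.14 to 41.3 ± 1.57 FPKM (-0.18, adjusted p 0.0329), a call lost in 11 of 19 alternative settings. It was lost without empty vector replicate 1 (adjusted p 0.0889) or 3 (0.0717) and without LACTB replicate 1 (0.0887), 2 (0.0897) or 3 (0.0530). Of 18 other mitochondrial chaperones and assembly factors 16 were tested, and 2 rose and none fell (limma, median -0.04). At an unadjusted p under 0.05 the fallen count was 1 (CLPB, 2.67 and 2.29 FPKM), and with limma voom it was 0. Of all 11875 tested genes, 5029 had that unadjusted p in either direction, and 16.4% fell with limma voom. The risen count was 4 with library weights and 5 with limma voom, where 16.9% and 19.8% of all tested genes rose. Besides TIMM44, BCS1L, an assembly factor of respiratory complex III, rose from 6.60 ± 0.0338 to 8.17 ± 0.288 FPKM (0.27, adjusted p 0.00397).

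Known substrates and binding partners were 23 symbols, of which 22 matched and 20 were tested, with 5 risen and 2 fallen (median -0.07). The risen and fallen shares over all tested genes were 14.8% and 17.2%. BIRC3, an inhibitor of apoptosis of the family that HTRA2 binds and cleaves, rose from 5.35 ± 0.360 to 8.92 ± 0.521 FPKM (SD, n = 3 each, log2 fold change 0.64, adjusted p 0.000477). ALAS1, the first enzyme of heme synthesis, which LONP1 and CLPX-CLPP act on, rose from 30.3 ± 0.979 to 37.4 ± 0.688 FPKM (0.30, adjusted p 0.00203). ERAL1 (adjusted p 0.0256) and BIRC2 (adjusted p 0.0306) also rose and are named after their values were seen. The call of ERAL1 was lost in 9 of 19 settings, among them those without any 1 library but LACTB replicate 2 (adjusted p 0.0517 to 0.0753). That of BIRC2 was lost in 8, among them those without empty vector replicate 1 or 2 or LACTB replicate 1 or 2 (adjusted p 0.0577 to 0.0905). MCU, the calcium channel of the inner membrane, fell from 13.6 ± 0.447 to 10.8 ± 0.754 FPKM (-0.30, adjusted p 0.00762). OPA1, the inner membrane fusion protein, was at 28.2 ± 0.754 and 25.1 ± 0.649 FPKM (-0.17, adjusted p 0.0199), a call lost in 7 of 19 settings, among them those without empty vector replicate 2 (adjusted p 0.0604) and without LACTB replicate 2 (0.0740) or 3 (0.0687). The risen count fell to 2 without empty vector replicate 2, and to 3 without empty vector replicate 1 or any 1 LACTB replicate. Of all tested genes, 11% rose without empty vector replicate 2, 11.7% without empty vector replicate 1, and 9.4% to 11.3% without 1 LACTB replicate. The fallen count was 1 without empty vector replicate 2, LACTB replicate 2 or LACTB replicate 3. In these settings 13.2%, 11.7% and 12.2% of all tested genes fell.

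Relatives of the chaperones in the cytosol and the endoplasmic reticulum counted 4 risen and 3 fallen of 22 tested (median -0.08). Among all tested genes 14.8% rose and 17.2% fell. HSP90B1, the HSP90 of the endoplasmic reticulum and a relative of TRAP1, fell from 266 ± 13.4 to 191 ± 6.53 FPKM (SD, n = 3 each, log2 fold change -0.48, adjusted p 0.000831), while TRAP1 itself was not called. CCT5, a subunit of the cytosolic chaperonin, fell from 113 ± 2.57 to 97.2 ± 3.64 FPKM (-0.21, adjusted p 0.0101), and HSPB1, a small heat shock protein, from 83.3 ± 8.38 to 62.6 ± 5.31 FPKM (-0.41, adjusted p 0.0126). The inducible HSP70 genes HSPA1A (24.2 ± 1.798 and 28.0 ± 1.11 FPKM, adjusted p 0.0379) and HSPA1B (8.44 ± 1.41 and 12.2 ± 1.13 FPKM, adjusted p 0.0176) rose, but they are near-identical copies between which reads may be split. DNAJA4, a cytosolic J protein, rose from 6.24 ± 0.212 to 7.32 ± 0.179 FPKM (0.20, adjusted p 0.0149), and TCP1, named after its values were seen, was the fourth (adjusted p 0.0488). The call of TCP1 was lost in 10 of 19 settings, among them those without any 1 library but empty vector replicate 3 (adjusted p 0.0773 to 0.167). The calls of CCT5, HSPB1, HSPA1A, HSPA1B and DNAJA4 were lost in 4, 2, 9, 4 and 5 of 19 settings. HSPA1A lost its call when any library but empty vector replicate 1 was left out (adjusted p 0.0724 to 0.117), and HSPA1B without LACTB replicate 2 or 3 (0.0614 each). DNAJA4 lost it without empty vector replicate 2 (0.0508) or LACTB replicate 3 (0.0533), and CCT5 without LACTB replicate 2 (0.0510). With 1 library left out, the risen count was 1 for empty vector replicate 2, and for LACTB replicates 1, 2 and 3 it was 2, 1 and 0. Of all tested genes, 11%, 11.3%, 9.4% and 10.2% rose in these settings, in that order.

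Of 12 genes taken for general mitochondrial content none rose and 2 fell (limma, median -0.04), against 14.8% and 17.2% of all tested genes. VDAC3, a channel of the outer membrane, fell from 35.1 ± 2.93 to 27.9 ± 1.19 FPKM (SD, n = 3 each, log2 fold change -0.32, adjusted p 0.0111), and ATP5F1B, a catalytic subunit of ATP synthase, from 345 ± 3.02 to 294 ± 14.3 FPKM (-0.23, adjusted p 0.0119). CS, which encodes citrate synthase and is named after its values were seen, was at 36.1 and 36.6 FPKM (0.02, adjusted p 0.811). The risen count was 2 at an unadjusted p under 0.05 (TOMM20 and SOD2) and 3 with limma voom, which added VDAC2. Of all 11875 tested genes, 5029 had that unadjusted p in either direction, and 19.8% rose with limma voom. The calls of VDAC3 and ATP5F1B were lost in 2 and 4 of 19 settings, none of which left out a library.

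**Figure D4:**
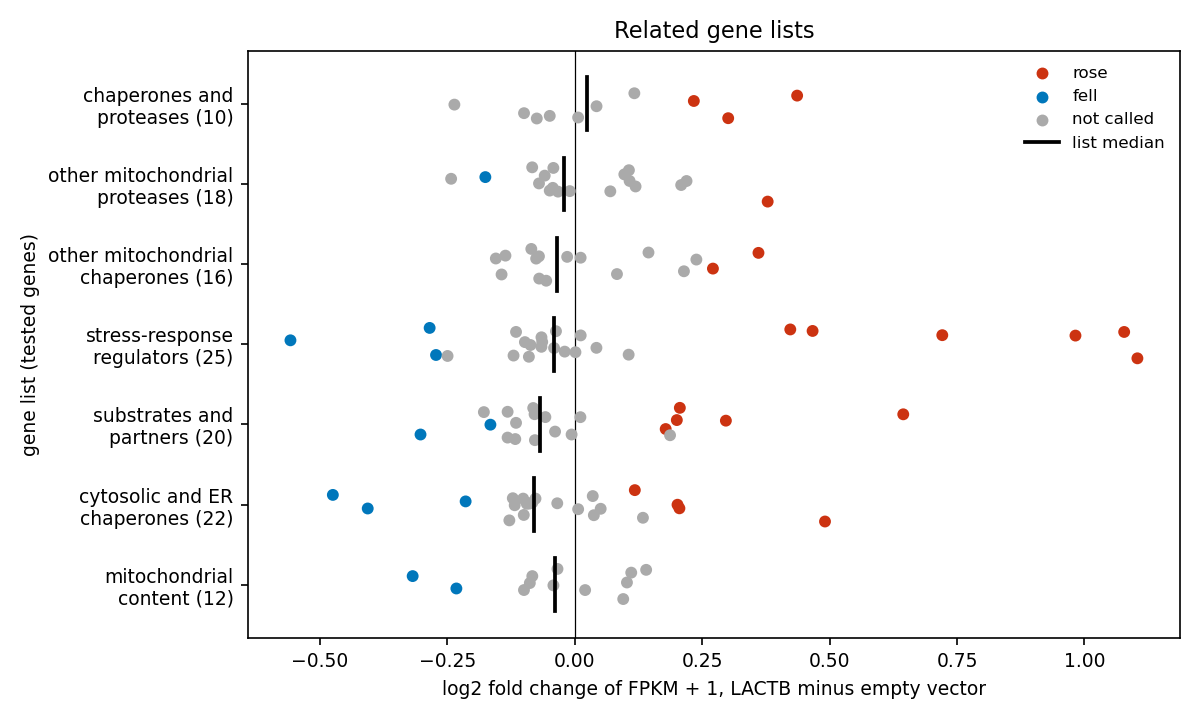
Log2 fold change of FPKM + 1 (horizontal axis, LACTB minus empty vector) of every tested gene of the 10 chaperones and proteases and of the 6 related lists, with the list median as a black bar and genes that rose or fell in red or blue. The regulators reach from -0.56 (JUN) to 1.10 (CEBPB), while the 10 genes lie between -0.24 (HSPE1) and 0.44 (LONP1).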

How the data were processed

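RNA-seq of 6 libraries was analysed, 3 of empty vector and 3 of LACTB cells, sequenced as 150 bp paired-end reads per the labels' protocols. The authors deposited FPKM values, 1 table per library; per the submitters' processing notes, the tools were DESeq2 1.16.1, featureCounts 1.5.0-p3 and HISAT2 2.0.5, with the build GRCh38, and their settings are not stated there. Multiplied by GENCODE release 29 exon lengths, 100% of the values gave whole reads (tolerance 0.1). The library sizes implied by the deposited FPKM, 17206281 to 18145826, differ from the reads summed over genes, and how the authors set them is not stated. Groups were compared with limma 3.58.1 (R 4.3.3, moderated with a variance trend) on log2(FPKM + 1), so fold changes understate those of low genes, for genes averaging 1 FPKM or more, with Benjamini-Hochberg adjustment over all of them and a threshold of 0.05, two-sided. The script was tested on simulated data. The members and lists were chosen with earlier results of these data known. Named genes are all 10 members, LACTB, up to 3 risen and 3 fallen genes of smallest p per list, the 2 most similar genes per member, and close copies with a mean of at least 0.5 FPKM. A gene that this rule names among the substrates and partners is not reported here. GRPEL1, GRPEL2, SPG7, CS and genes that fill small counts or overlap or neighbour a member are named outside this rule. There were 19 alternatives, covering pseudocount, filter, scaling, variance model, replicate block, threshold, limma voom on the recovered reads, and each library left out. Promoter sequences are from RefSeq (GRCh38.p14).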

Additional observations from a re-analysis of the deposited data

How the results depend on the processing

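The count of 3 risen and 0 fallen members was the same in all 19 alternatives, and the adjusted p (limma) ranged from 3.96e-06 to 0.0115 for LONP1, from 4.59e-05 to 0.0324 for HSPA9 and from 0.000633 to 0.0419 for DNAJA3. With the replicate number as a replicate block the count of risen members was 3 and DNAJA3 had its highest p, while over all genes 1155 rose and 1324 fell, against 1758 and 2038. Same-numbered libraries did not deviate together (r -0.13, 0.02 and -0.04), and 0 of 6 libraries correlated best with its own number. With 3 libraries per group, this cannot show whether same-numbered libraries were handled together. No filter gave 1254 risen and 1403 fallen of 30629 genes, TPM 1615 and 1295 of 16070, a threshold of 0.01 847 and 1004, and leaving out LACTB replicate 2 gave 1115 and 1388. Over the libraries left out, the log2 fold change of TRAP1 ran from -0.03 to 0.055 and that of HTRA2 from -0.10 to 0.03. TRAP1 turned negative without empty vector replicate 2 (-0.0293), LACTB replicate 2 (-0.0032) or LACTB replicate 3 (-0.032), and HTRA2 turned positive without LACTB replicate 1 (0.033); the cause was not tested. HTRA2 has no value at a mean of at least 5 FPKM. HTRA2 and HSPE1 had the fewest reads. Partner ratios kept their direction as log2 differences and with each library left out, the alternatives run for them.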
